A study of Mus musculus with 5 samples.

Results

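The neurotrophins and their receptors were described in the mouse neuroblastoma line Neuro2A and 4 lines made from it, in 2 of which the histone demethylase KDM7 (gene Kdm7a) had been knocked down. The 7 genes listed were the receptors Ngfr, Ntrk2, Ntrk3 and Sort1, the ligands Bdnf and Ntf3, and the receptor adaptor Maged1. Probe sets were taken by gene symbol, and the family was chosen by the earlier known low Ngfr signal in the knockdown lines, so knockdown against control is described for it without a test. Of the 7 genes, 6 had probe sets under their own symbol, of 18193 genes on the array so named, and Ntf3 was not analysed here. The 6 genes had 25 probe sets among 45037, and 12 of them, from 5 genes, passed a filter on brightness. The filter kept probe sets whose mean log2 signal over the 5 arrays was at or above the median, which is a signal of 40.5.

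Each line was measured on 1 Affymetrix expression array. The 3 control lines were parental cells, cells carrying an empty vector, and cells carrying a vector for knockdown of EGFP, a jellyfish protein that is no mouse gene. The 2 knockdown lines, KDM7 KD1 and KDM7 KD2, carried different vectors against KDM7 and were stable lines. The labels give no time in culture, do not say whether a line was 1 clone or a pool, and do not say if each line was grown apart. Any p-value therefore measures only the spread between these arrays. The lines of a group served as its replicates (n = 3 control and n = 2 knockdown).

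Neurotrophins are secreted growth factors that keep neurons of the peripheral nervous system alive and guide their growth. Each mature factor binds a Trk receptor tyrosine kinase, which signals for survival and outgrowth, and all of them also bind p75NTR, the protein made from Ngfr. p75NTR is a member of the tumour necrosis factor receptor family with a death domain and no kinase; it can raise the affinity of Trk receptors for their ligands or, with sortilin, bind the uncleaved proneurotrophins and signal for cell death. Sympathetic neurons, the lineage from which neuroblastoma arises, depend on this system during development.

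The regions upstream of the annotated starts are shown for Ngfr, Maged1 and Ntrk2, the 3 genes with a probe set above the filter whose signal in both knockdown lines lay outside the range of the controls. Of the 7 genes, 5 matched RefSeq's promoter table, and the sequences are credited to RefSeq on build GRCm38.p6. Each run is the 250 bases before the start, 5′ to 3′ on the gene's own strand, and capitals mark GC boxes (GGGCGG, the letters bound by Sp1 and its relatives) and E-boxes (CANNTG, the letters bound by basic helix-loop-helix factors), searched on both strands. The Ngfr run lies at chr11:95587699-95587948 on the minus strand, the Maged1 run at chrX:94542026-94542275 on the minus strand and the Ntrk2 run at chr13:58806319-58806568 on the plus strand.
Ngfr: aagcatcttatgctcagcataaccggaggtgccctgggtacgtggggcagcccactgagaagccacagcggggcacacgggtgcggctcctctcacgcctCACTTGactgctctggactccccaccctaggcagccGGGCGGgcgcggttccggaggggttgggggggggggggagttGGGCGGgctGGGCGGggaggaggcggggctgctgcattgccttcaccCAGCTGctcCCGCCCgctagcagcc
Maged1: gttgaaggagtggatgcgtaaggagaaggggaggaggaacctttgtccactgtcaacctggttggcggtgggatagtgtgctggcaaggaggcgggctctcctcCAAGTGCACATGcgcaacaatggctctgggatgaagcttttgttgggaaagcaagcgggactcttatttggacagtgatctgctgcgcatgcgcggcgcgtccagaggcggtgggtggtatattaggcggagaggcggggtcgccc
Ntrk2: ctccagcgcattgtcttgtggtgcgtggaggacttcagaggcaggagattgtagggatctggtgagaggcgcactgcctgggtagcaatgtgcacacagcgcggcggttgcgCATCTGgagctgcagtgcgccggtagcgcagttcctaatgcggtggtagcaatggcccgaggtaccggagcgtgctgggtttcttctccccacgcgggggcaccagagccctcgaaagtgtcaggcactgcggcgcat

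The Ngfr run held 4 GC boxes and 2 E-boxes. The GC boxes began 114, 72, 63 and 16 bases before the start, the last on the opposite strand, and the E-boxes began 150 and 25 bases before it. The Maged1 run held 2 E-boxes, side by side at 146 and 140 bases before the start, and the Ntrk2 run held 1, at 138 bases; GGGCGG was found in neither. None of the 3 runs held TATAAA or CCAAT. Over 32851 promoter windows of this length GGGCGG occurred in 32.7%, CANNTG in 66.2%, TATAAA in 12.4% and CCAAT in 33.8%. CpG dinucleotides numbered 16 in the Ngfr run, 14 in the Maged1 run and 19 in the Ntrk2 run, against a median of 6 over all windows. Fewer were found in 74.6%, 70.6% and 80.3% of the windows, in the same order, so such counts are not rare. A match is a string of letters and was not tested as a binding site.

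Ngfr, the receptor shared by all neurotrophins, had a lower signal in both knockdown lines than in any control line with each of its 3 probe sets. Probe set 1454903_at gave 1885 in parental cells, 1774 with the empty vector and 1605 with the EGFP vector, against 812 in KDM7 KD1 and 805 in KDM7 KD2. The controls lay close together at 1755 ± 141 (SD, n = 3) and the knockdown lines at 808 ± 4.85 (SD, n = 2), with no overlap. The difference in log2 signal was -1.11 ± 0.15 (SE), a 2.17-fold lower signal, and the lowest control stood 1.98-fold over the higher knockdown line. In bulk RNA of this kind, fewer cells with Ngfr transcript and less transcript in each cell cannot be told apart.

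Probe set 1450177_at gave 236 in parental cells, 248 with the empty vector and 246 with the EGFP vector, against 56.9 in KDM7 KD1 and 90.5 in KDM7 KD2. Here the controls were nearly level and the knockdown lines differed from each other. The difference in log2 signal was -1.76 ± 0.23 (SE), or 3.39-fold, and it was -1.40 after adding 32 to every signal before taking logs. Probe set 1421241_at, which did not pass the filter, gave 88.2, 52.4 and 54.2 in the same controls and 12.8 and 11.8 in KDM7 KD1 and KDM7 KD2. Its knockdown signals lay under the filter level, so its 5.13-fold difference rests on values where such signals are unsteady, and with the added 32 the log2 difference was -1.11.

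Over all 14 settings tried for 1454903_at, the main one included, the log2 difference lay between -1.22 and -1.06, and over 13 for 1450177_at between -2.10 and -1.40. Among all 22519 probe sets that passed the filter, 1450177_at had the 35th lowest difference in log2 signal and 1454903_at the 143rd. Low ranks follow from the choice of the family by its low Ngfr signal in this contrast, so they are a description only. Pearson's r of log2 signal between pairs of the 3 Ngfr probe sets was 0.932 to 0.988 over the same 5 arrays, which share lines and RNA. The pattern followed the split between control and knockdown lines on each of the 3.

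**Figure D1:**
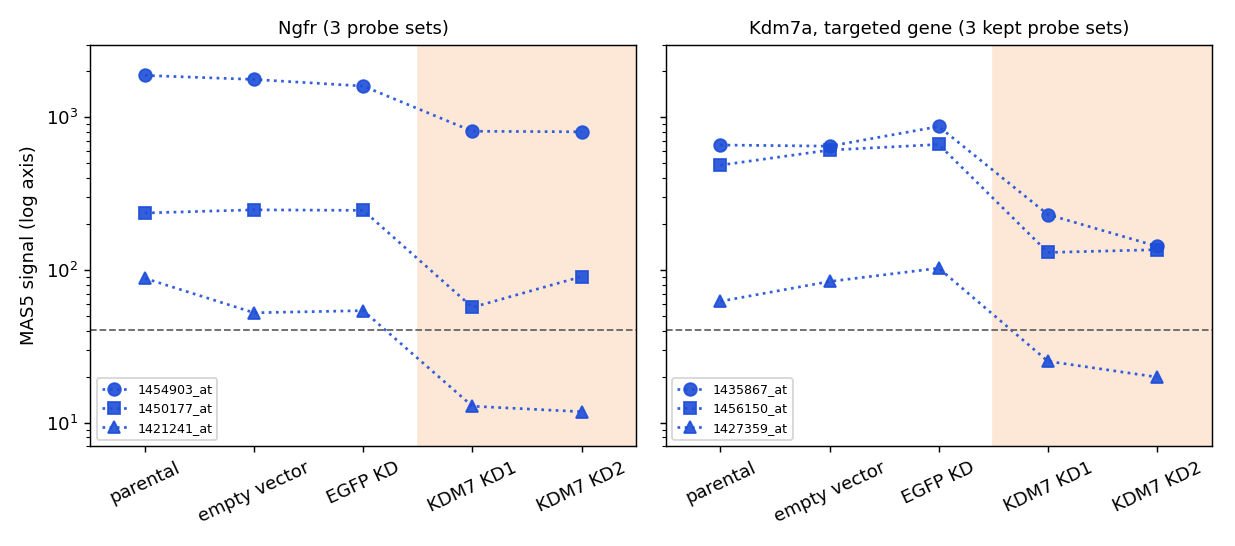
MAS5 signal on a log axis in the 5 lines for the 3 probe sets of Ngfr (left) and the 3 Kdm7a probe sets that passed the filter (right), with 1 point per array; the dashed line is the filter level of 40.5 and the shaded columns are the knockdown lines. Every Ngfr and Kdm7a probe set shown lay under all 3 controls in both knockdown lines, and the dotted lines only join the points of a probe set.

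The targeted gene checks the labels. Kdm7a probe set 1456150_at gave 487 in parental cells, 611 with the empty vector and 665 with the EGFP vector, against 130 and 136 in KDM7 KD1 and KDM7 KD2, a log2 difference of -2.13 ± 0.18 (SE). Both knockdown lines matched their labels on this probe set. Across all probe sets above the filter, knockdown against control had 0 of 22519 (0%) past an adjusted p of 0.05 in limma with Benjamini-Hochberg adjustment, Kdm7a included, and 1252 (5.56%) at an unadjusted p under 0.05. With limma's trend and robust options, 2 passed, Fst and Kdm7a. Those options made a false call in most earlier null simulations of this design. Both knockdown lines were below every control for 2297 probe sets (10.2%) and above for 2834 (12.6%), a split that became 3985 and 1356 after centring each array on its median. At a margin of at least 2-fold, 18 were below (0.0799%) and 7 above (0.0311%). Of the 12 probe sets of the family that passed the filter, 3 were below every control, 1 was above and 8 overlapped; these shares carry no test, since the family was chosen with this contrast known.

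The Trk receptors showed no common direction. Ntrk2, which encodes TrkB, the receptor of brain-derived neurotrophic factor, had 8 probe sets, and 1 passed the filter. That probe set, 1420838_at, gave 47.9 in parental cells, 109 with the empty vector and 84.3 with the EGFP vector, against 127 in KDM7 KD1 and 124 in KDM7 KD2. Both knockdown lines were above all controls, by 1.14-fold over the nearest, and the parental cells stood apart at the low end. The log2 difference was 0.72 ± 0.36 (SE) against the 3 controls and 0.39 against the 2 vector controls alone.

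The other 7 Ntrk2 probe sets had mean signals under the filter level and showed no shared direction. For 2 of them both knockdown lines were below every control, for 1 they were above, and for 4 the groups overlapped. Probe set 1446712_at gave 25.6, 41.6 and 14.3 in the controls (parental, empty vector and EGFP vector) and 11.3 and 3.09 in KDM7 KD1 and KDM7 KD2. Probe set 1420837_at went the other way, with 1.94, 3.11 and 3.23 in the controls and 6.89 and 25.9 in the knockdown lines. At such signals the arrays give no steady level, and no direction is read from them.

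Ntrk3 encodes TrkC, the receptor of neurotrophin-3. All 8 of its probe sets overlapped between control and knockdown lines, and 5 passed the filter. The other 3 did not reach the filter level on any array, and no direction is read from them. Most probe sets above the filter overlapped too, with 10.2% below every control in both knockdown lines and 12.6% above. Probe set 1433825_at gave 292 in parental cells, 128 with the empty vector and 249 with the EGFP vector, against 193 and 254 in the knockdown lines. Its controls spread more than the groups differed, and the log2 difference was 0.07 ± 0.39 (SE). Probe set 1455917_at was the steadiest, with 234, 201 and 224 in the controls and 203 and 202 in the knockdown lines, a log2 difference of -0.12 ± 0.14 (SE).

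The remaining 3 Ntrk3 probe sets above the filter had wide spreads. Probe set 1447723_at gave 106, 95.5 and 62.4 in the controls and 72.0 and 46.7 in KDM7 KD1 and KDM7 KD2, a log2 difference of -0.57 ± 0.31 (SE). Probe set 1425071_s_at gave 74.2, 57.2 and 42.3 in the controls and 49.1 and 68.9 in the knockdown lines, which crossed over. Probe set 1422329_a_at gave 85.7, 44.2 and 44.8 in the controls and 31.2 and 59.7 in KDM7 KD1 and KDM7 KD2. It was the dimmest of the family above the filter, with a geometric mean of 50.1. The brightest of the family below the filter was the third Ngfr probe set, at 32.8.

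Sort1 encodes sortilin, which partners p75NTR in binding proneurotrophins and also carries proteins between the Golgi and endosomes. Its 3 probe sets all passed the filter, and all overlapped between the groups. Probe set 1423362_at gave 865 in parental cells, 1087 with the empty vector and 940 with the EGFP vector, against 1078 in KDM7 KD1 and 947 in KDM7 KD2. The log2 difference was 0.07 ± 0.17 (SE), and it was -0.04 after median centring. Probe set 1450955_s_at gave 152, 193 and 181 in the controls against 217 and 170 with knockdown. Probe set 1423363_at gave 127, 149 and 147, then 185 and 134. In all 3, parental cells were the lowest of the lines and KDM7 KD1 was above KDM7 KD2. Overlap was the usual case above the filter, where both knockdown lines were below every control for 10.2% of probe sets and above for 12.6%.

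Of the ligands Bdnf, brain-derived neurotrophic factor, was measured with 2 probe sets, and neither reached the filter level on any array. Probe set 1422169_a_at gave 5.35 in parental cells, 6.01 with the empty vector and 28.3 with the EGFP vector, against 27.3 and 16.0 in the knockdown lines. Probe set 1422168_a_at gave 2.80, 1.49 and 13.7 in the controls and 0.944 and 3.65 in the knockdown lines. On both, the cells with the EGFP vector were the highest of the 5 lines, and the groups overlapped. At signals this low no order of the lines is read.

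Maged1 encodes NRAGE, a MAGE family protein that binds the intracellular part of p75NTR. Its only probe set, 1450062_a_at, gave 5814 in parental cells, 1917 with the empty vector and 2745 with the EGFP vector, against 1906 in KDM7 KD1 and 1698 in KDM7 KD2. Both knockdown lines were below every control, but by only 1.005-fold under the empty vector, while the parental cells stood 2.12-fold over the highest of the other 4 lines. The log2 difference was -0.80 ± 0.47 (SE) against all controls and -0.35 against the 2 vector controls. After quantile normalization the knockdown lines no longer lay below every control. The spread of this gene among the controls, 3492 ± 2054 (SD, n = 3), was larger than the difference between the groups.

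**Figure D2:**
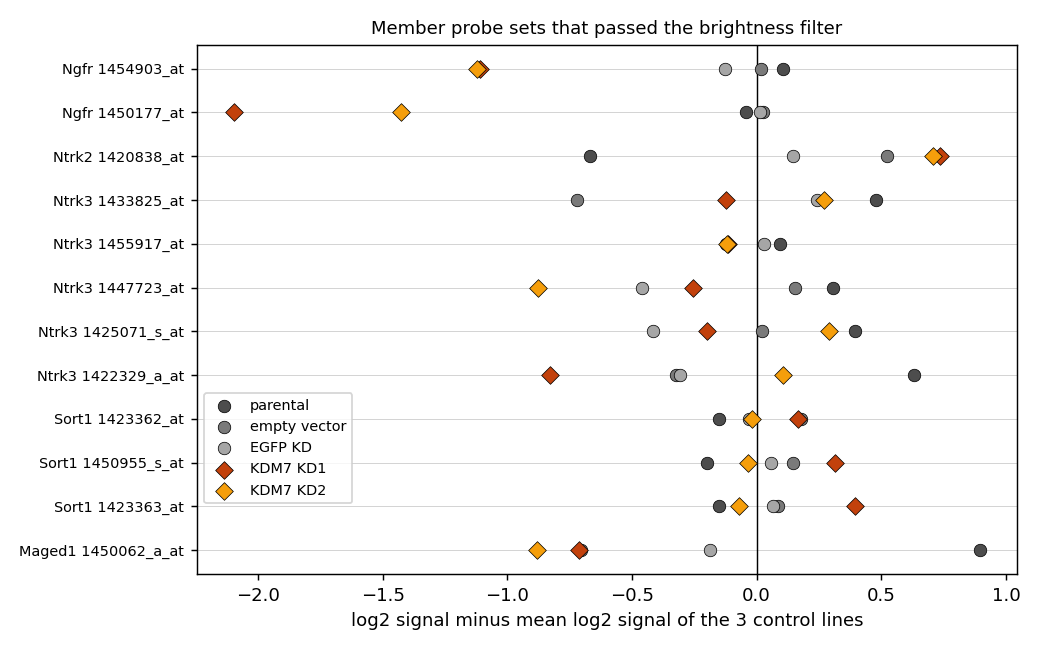
log2 signal of each line minus the mean of the 3 control lines for the 12 probe sets of the family above the filter, with grey circles for controls and diamonds for knockdown lines. Only the 2 Ngfr probe sets have both diamonds more than 1 log2 unit under the control mean, while Ntrk2 and Maged1 have parental cells as the farthest control.

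The vector controls carry a vector and the parental cells do not. With a single parental array, the vector cannot be told apart from time in culture, clone or array. The comparison of vector controls with parental cells did not choose the family, so it was tested. It used limma on 3 groups (parental, vector controls, knockdown), with the single parental array assumed to vary like the others. None of the 12 probe sets passed an adjusted p of 0.05 (Benjamini-Hochberg in limma, lowest adjusted p = 0.256), and 2 had an unadjusted p under 0.05, Maged1 and Ntrk2. Over all probe sets 0 of 22519 (0%) passed, with 2939 (13.1%) at an unadjusted p under 0.05, and 26 passed with limma's trend option and 35 with trend and robust, none of them from the family. For Maged1 the log2 difference of vector controls minus parental was -1.34 ± 0.28 (SE; adjusted p = 0.256 in limma), and both vector controls were lower. For Ntrk2 1420838_at it was 1.00 ± 0.22 (SE; adjusted p = 0.264 in limma), and both vector controls were higher. For Ngfr it was -0.16 ± 0.17 (SE) on 1454903_at and 0.06 ± 0.32 (SE) on 1450177_at, the second turning to -0.10 after median centring and to -0.02 after cyclic loess.

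Of 80 other genes of the neurotrophin pathway that were measured above the filter, 14 (17.5%) had an unadjusted p under 0.05 in this comparison, against 13.1% of all probe sets, and none passed the adjusted threshold in limma. The 4 described here were chosen after their values were seen. Bex3, a small p75NTR-binding protein also called NADE, gave 10515 in parental cells, 5035 with the empty vector and 6120 with the EGFP vector, and 5371 and 4846 in KDM7 KD1 and KDM7 KD2. Its vector controls minus parental log2 difference was -0.92 ± 0.21 (SE; adjusted p = 0.266 in limma). Magee1, another MAGE family gene, gave 588 in parental cells and 324 to 373 in the other 4 lines. Psen2, a catalytic subunit of the gamma-secretase that cuts p75NTR inside the membrane, went the other way, with 108 in parental cells and 276 to 459 elsewhere, as did Shc1, an adaptor that couples Trk receptors to Ras, with 363 against 605 to 761.

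**Figure D3:**
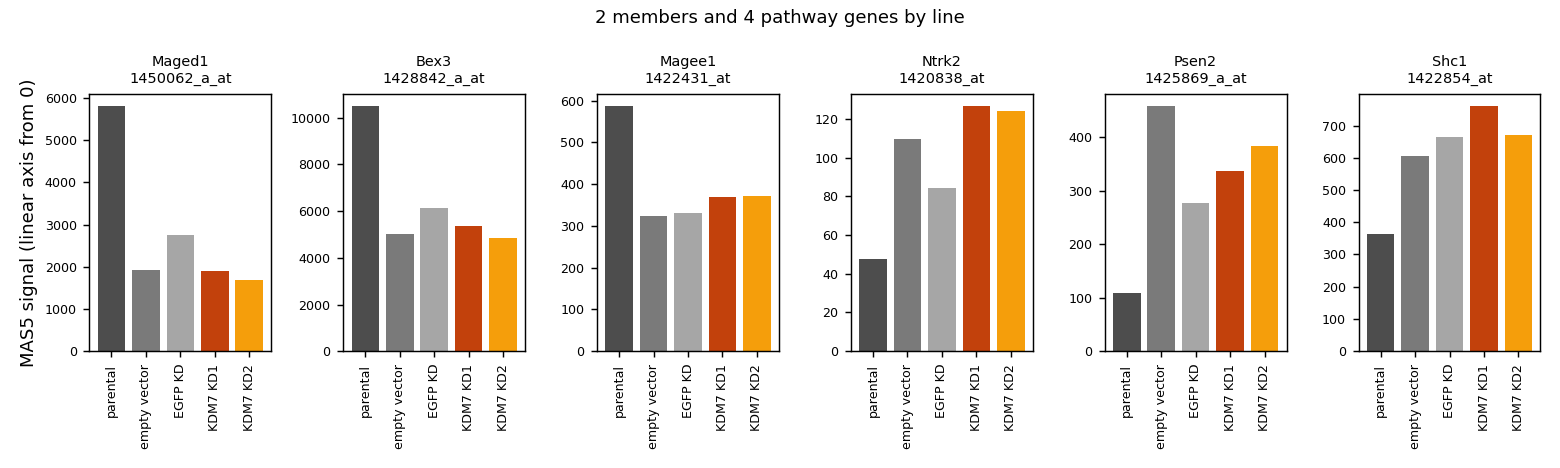
MAS5 signal on linear axes from 0 in the 5 lines for Maged1 and Ntrk2 and for 4 pathway genes, with 1 bar per array and no error bar since each line was measured once. Parental cells are the highest bar for Maged1, Bex3 and Magee1 and the lowest for Ntrk2, Psen2 and Shc1.

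The knockdown lines were also compared with each other, again in limma with each line assumed to vary like the controls. Over all probe sets 0 of 22519 (0%) passed an adjusted p of 0.05, with 567 (2.52%) at an unadjusted p under 0.05, and 1 passed with limma's trend option, with trend and robust, or with a filter at the 70th percentile. Of the 12 probe sets of the family none passed and none had an unadjusted p under 0.05. Their log2 differences, KDM7 KD2 minus KDM7 KD1, lay between -0.62 and 0.94. For Ngfr the difference was -0.01 ± 0.28 (SE) on 1454903_at, and 0.05 after median centring, and 0.67 ± 0.27 (SE) on 1450177_at. With 1 array a line and 2 residual degrees of freedom this fit says little about differences of this size. On 1450177_at KDM7 KD2 was 1.59-fold over KDM7 KD1, and on the third Ngfr probe set the log2 difference was -0.12. For Maged1 the difference was -0.17 ± 0.79 (SE) and for Ntrk2 1420838_at -0.03 ± 0.61 (SE), the latter 0.04 after median centring.

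Genes around the receptors were counted in 7 lists with 122 entries, of which 80 were measured above the filter, each by its probe set of highest mean signal. None passed the adjusted threshold for knockdown against control (limma, 0 of 80), 4 lower genes and 1 higher gene had an unadjusted p under 0.05 (6.25%, against 5.56% of all probe sets), and none lay 2-fold beyond the controls. Both knockdown lines were below every control for 11 (13.75%, against 10.2% of all probe sets) and above for 5 (6.25%, against 12.6%), and these became 15 and 4 after median centring. The median log2 difference was -0.02, against 0.03 over 10867 genes. The lists were drawn up with earlier results known.

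The 4 measured genes among other neurotrophins, receptors and co-receptors all overlapped on their brightest probe sets, with a median log2 difference of -0.04. Most probe sets above the filter overlapped too, since both knockdown lines were below every control for 10.2% and above for 12.6%. Ntf5, the gene of another neurotrophin that binds TrkB, gave 95.1, 62.7 and 111 in the controls and 102 and 76.1 in the knockdown lines, a log2 difference of 0.01 ± 0.29 (SE). Lingo1, a partner of p75NTR in the Nogo receptor complex, gave 273, 118 and 168 in the controls and 182 and 207 in the knockdown lines. Rtn4, which encodes Nogo, differed by -0.10 ± 0.14 (SE) in log2 signal on its brightest probe set. Its other probe sets above the filter ran from -0.21 to 0.39. On the lowest of these, 1421116_a_at, both knockdown lines were below every control, by 1.003-fold. Nradd, a p75NTR-like death-domain protein, differed by -0.09 ± 0.18 (SE).

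Among 18 p75NTR adaptors and cleavage enzymes, both knockdown lines were below every control for 5 (Zfp110, Prdm4, Rhoa, Adam10 and Psenen) and above for 1 (Zfp369), with a median log2 difference of -0.06. These are 27.8% and 5.56% of the list, against 10.2% and 12.6% of all probe sets. Most of the margins were small. The lowest control stood over the higher knockdown line by 1.009-fold for Psenen, 1.018-fold for Rhoa and 1.023-fold for Prdm4. For Adam10 it was 1.057-fold and for Zfp110 1.22-fold. Without the parental cells the log2 difference of Rhoa was -0.09. Zfp369 and Zfp110 are related zinc finger proteins, both known as p75NTR interactors. Zfp369 gave 279, 302 and 284 in the controls and 373 and 375 in the knockdown lines, a log2 difference of 0.38 ± 0.13 (SE; adjusted p = 0.879 in limma). Zfp110 gave 849, 813 and 844 in the controls and 665 and 623 in the knockdown lines, a log2 difference of -0.37 ± 0.13 (SE; adjusted p = 0.879 in limma). The controls of both were close together, and neither difference passed the adjusted threshold. Psen2 differed by 0.59 ± 0.60 (SE) and Bex3 by -0.43 ± 0.33 (SE) between knockdown and control, with groups that overlapped.

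Among 26 Trk adaptors and kinases both knockdown lines were below every control for 2 (Crk and Akt1) and above for 2 (Shc1 and Braf). Each is 7.69% of the list, against 10.2% below and 12.6% above over all probe sets, and the list's median was 0.02. The margins to the nearest control were 1.007-fold for Shc1, 1.019-fold for Akt1, 1.045-fold for Crk and 1.064-fold for Braf. Shc1 differed by 0.44 ± 0.29 (SE) and by 0.17 without the parental cells. Its other probe set above the filter, 1422853_at, differed by 0.79, with groups that overlapped. Gab2, a docking protein for phosphatidylinositol 3-kinase, differed by 0.39 ± 0.21 (SE), with overlap, and by 0.08 and 0.17 on its other probe sets above the filter. Braf, a kinase of the MAP kinase cascade, differed by 0.30 ± 0.17 (SE) on its brightest probe set, but its probe sets disagreed and ran from -0.26 to 0.67. Of 7 genes for processing and release all overlapped (0% below and 0% above, against the same 10.2% and 12.6% of all probe sets). Plat, tissue plasminogen activator, gave 458, 474 and 140 in the controls and 474 and 628 in the knockdown lines, a log2 difference of 0.81 ± 0.58 (SE) that was 0.23 without the EGFP vector line. Cpe, carboxypeptidase E, differed by -0.58 ± 0.29 (SE) and Pcsk6, a proprotein convertase, by 0.38 ± 0.51 (SE).

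Of 17 genes known to respond to neurotrophins or to limit the response, both knockdown lines were below every control for 4 (Fos, Dusp6, Spry2 and Spry4) and above for 2 (Vgf and Arc), or 23.5% and 11.8% of the list against 10.2% and 12.6% of all probe sets. Fos, an immediate early transcription factor, gave 620 in parental cells, 733 with the empty vector and 445 with the EGFP vector, against 320 and 318 in KDM7 KD1 and KDM7 KD2. Its log2 difference was -0.88 ± 0.24 (SE; unadjusted p = 0.012, adjusted p = 0.879 in limma). Dusp6, a phosphatase that switches off ERK, gave 2586, 2977 and 3160 in the controls and 1703 and 2347 in the knockdown lines, a log2 difference of -0.54 ± 0.20 (SE; adjusted p = 0.879 in limma). Spry2, an inhibitor of receptor tyrosine kinase signalling, gave 536, 477 and 481 and then 370 and 350, a log2 difference of -0.47 ± 0.14 (SE; adjusted p = 0.879 in limma). These 3 were lower in both knockdown lines and did not pass the adjusted threshold, and the list's median was -0.01. Egr2, an immediate early zinc finger factor, gave 71.9 in KDM7 KD1 and 23.2 in KDM7 KD2 with controls of 52.6 to 68.9. The knockdown lines thus lay on both sides of the controls, but KDM7 KD1 was close to the highest control. The KDM7 KD2 value lay under the filter level, where signals are unsteady.

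Tumour necrosis factor receptors related to p75NTR (3 measured) and the GDNF family, another set of neuronal growth factors (5 measured), all overlapped on their brightest probe sets. Overlap was the usual case, since 10.2% of all probe sets were below every control in both knockdown lines and 12.6% above. Tnfrsf1b, a receptor of tumour necrosis factor, gave 19.3 in KDM7 KD1 and 87.6 in KDM7 KD2 with controls of 50.3 to 84.3. Its KDM7 KD1 value lay under the filter level, where signals are unsteady. Tnfrsf12a differed by 0.40 ± 0.28 (SE) and Tnfrsf1a by 0.11 ± 0.16 (SE). Gfra2, a GDNF family co-receptor, gave 61.7, 155 and 135 in the controls and 38.4 and 91.2 in the knockdown lines, a log2 difference of -0.88 ± 0.54 (SE). Its other probe sets above the filter differed by -0.32 and -0.23, the latter with both knockdown lines below every control by 1.046-fold. Gfra1 differed by 0.22 ± 0.36 (SE) and the ligand gene Nrtn by 0.16 ± 0.17 (SE).

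**Figure D4:**
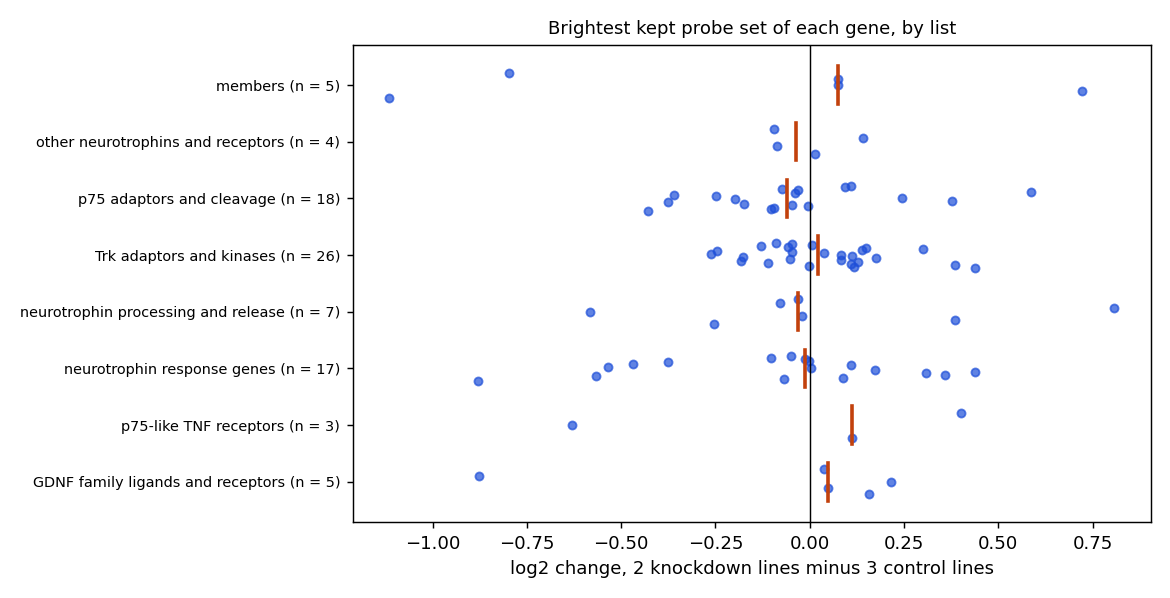
log2 difference, knockdown minus control, of the brightest probe set above the filter of each gene in the family and in the 7 lists; each point is a gene and each vertical bar the median of its list. The medians of the lists lie between -0.06 and 0.11, with Fos and the brightest Gfra2 probe set at -0.88.

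Among 3811 probe sets of other named genes with a range of at least 1 log2 unit, 20 had a Pearson r over 0.95 with Ngfr 1454903_at over the 5 arrays. The 5 genes with the highest r were Fst (0.992), 4930524J08Rik (0.985), Tbx2 (0.981), Adamts10 (0.981) and Rasl11b (0.978). This measure over 5 arrays is a description, and genes that split the lines as Ngfr does must score high. Fst, which encodes follistatin, a secreted binder of activins, gave 1348, 969 and 1040 in the controls and 274 and 255 in the knockdown lines. Tbx2, a T-box transcription factor, gave 1105, 946 and 1115 in the controls and 377 and 356 in the knockdown lines. Their differences in log2 signal were -2.07 ± 0.19 (SE) for Fst and -1.52 ± 0.15 (SE) for Tbx2, beside -1.11 and -1.76 for the Ngfr probe sets 1454903_at and 1450177_at. The Kdm7a probe sets above the filter had r of 0.924 to 0.964 with Ngfr.

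**Figure D5:**
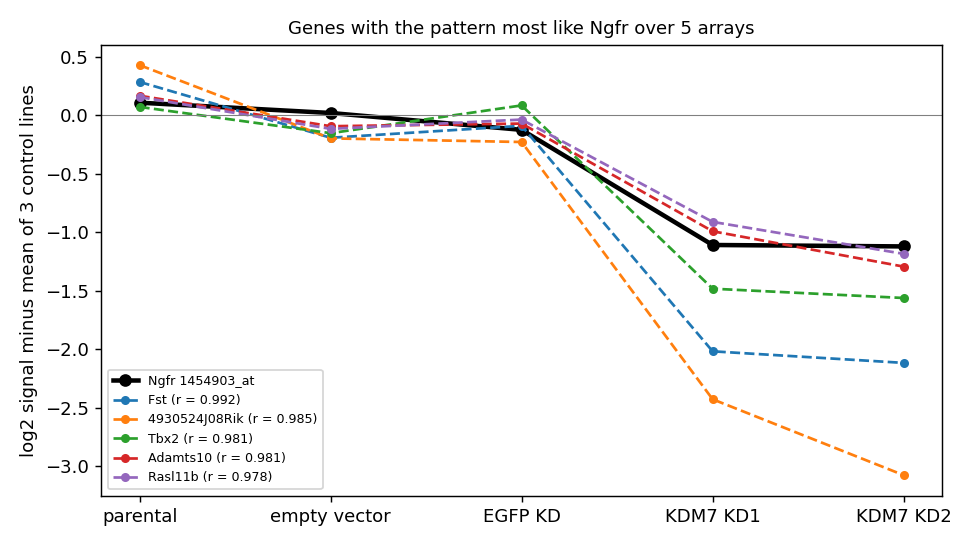
log2 signal of each line minus the mean of the 3 control lines for Ngfr 1454903_at (black) and the 5 genes of highest Pearson r with it over the 5 arrays. The lines join values of a gene and show no order of the cell lines; the knockdown lines lie at -1.11 and -1.12 for Ngfr and lower for Fst, 4930524J08Rik and Tbx2.

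Markers of the neuroblast lineage were present in all lines. Of 9 such genes with probe sets 8 passed the filter, among them Hand2 at 10162 to 13084 and Phox2a at 2444 to 3789, while Th was below it. The summed signal of the 9, to which Hand2 and Chgb add most, was 28940 to 31503 in controls and 29606 to 36489 in knockdown lines. Gene by gene the list was less level, with a median log2 difference of -0.39 between knockdown and control. Gata3, Isl1, Ddc and Chga were below every control in both knockdown lines (50% of the 8, against 10.2% of all probe sets), and Chgb was above. Gata3, a transcription factor of sympathetic neurons, gave 554, 224 and 585 in the controls and 178 and 95.3 in the knockdown lines, a log2 difference of -1.68 ± 0.51 (SE; adjusted p = 0.879 in limma). Isl1, another such factor, gave 1493, 545 and 1998 and then 316 and 466, a log2 difference of -1.62 ± 0.58 (SE; adjusted p = 0.879 in limma). Their part in the Ngfr values was not tested. Schwann cells and fibroblasts can express Ngfr. Of 8 Schwann cell and glial markers 2 passed the filter (Erbb3 and Mbp), 3 were under its level on all arrays, and the summed signal was 283 to 515 in controls and 427 to 609 in knockdown lines. Of 9 fibroblast markers 2 passed (Col1a2 and Pdgfra) and 6 were under the level on all arrays, with sums of 207 to 257 in controls and 204 to 271 in knockdown lines. Of 7 blood markers 1 passed (Cd74) and 5 were under it on all arrays, with sums of 285 to 539 in controls and 315 to 371 in knockdown lines. The part of such cells in any value above was not tested.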

How the data were processed

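The authors made the deposited array intensities with MAS5, per the submitters' processing notes, in a version that no source used here gives. They are linear signal intensities with a 2% trimmed mean of 500.0 on all 5 arrays, so arrays had been scaled alike before deposit. Control probe sets (64 of 45101) were left out, log2 was taken with no offset, and 22519 of 45037 probe sets were kept by the brightness filter. Symbols came from the platform annotation (34945 probe sets with 1 symbol, 932 with several, 9160 with none listed). No detection calls were used, and the number of arrays limits the precision. Dim MAS5 signals are noisy on a log scale, so fold differences there are the least steady.

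Tests used limma 3.58.1 in R 4.3.3 (lmFit and eBayes without trend or robust) with p-values adjusted by Benjamini and Hochberg across the 22519 and a threshold of 0.05, and were tested on simulated data. Knockdown against control had 3 residual degrees of freedom, and the other comparisons had 2. The members and lists were chosen with earlier results of these data known, as was the choice of the plain fit. In earlier null simulations of the knockdown comparison, trend with robust made a false call in most runs, and the plain fit did so rarely. Named genes were all members and the targeted gene, from each pathway list any past the threshold and the 3 of largest difference, and the 5 most like Ngfr. Others were named as falling outside the controls in both knockdown lines, or after their values were seen. Alternatives were quantile normalization, median centring, cyclic loess, an offset of 32, a filter at the 70th percentile, none, trend, trend with robust, and leaving out each array.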

Additional observations from a re-analysis of the deposited data

How the results depend on the processing

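Knockdown against control gave 0 calls in limma under all alternatives except trend with robust (2). For KDM7 KD2 against KDM7 KD1 the calls were 1 with the filter at the 70th percentile, 1 with trend and 1 with trend and robust, against 0 otherwise. For vector controls against parental they were 2 with the offset of 32 (Tspan2 and Myl9), 26 with trend and 35 with trend and robust. No member and no pathway gene was among any of these calls. Probe sets with both knockdown lines below every control numbered 2297, against 3985 after median centring, 4042 with no filter, 1498 with the 70th percentile filter and 3742 to 4708 without a single array. Those above numbered 2834, against 1356, 5627, 1562 and 4172 to 5507. Fewer arrays, and fewer or more probe sets, account for part of these counts by construction. Median centring shifted the median difference by -0.11 for knockdown against control, 0.07 for KDM7 KD2 against KDM7 KD1 and -0.16 for vector controls against parental.

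Differences between the knockdown lines changed sign under median centring for Ngfr 1454903_at (0.055), Ntrk2 1420838_at (0.039) and Ntrk3 1455917_at (0.063). Vector controls minus parental changed sign for Ngfr 1450177_at under median centring (-0.10) and cyclic loess (-0.018). The cause was not tested beyond the median shift. Without parental cells Maged1 differed by -0.35 and Ntrk2 by 0.39 between knockdown and control, and without the empty vector by -1.15 and 0.98. The 2 Ngfr probe sets above the filter were below every control in both knockdown lines under each scaling and with the offset. Ntrk3 1455917_at joined them after median centring and cyclic loess, and Maged1 left them after quantile normalization. Leaving out the parental array leaves no value for vector controls against parental, and leaving out a knockdown line leaves none for the comparison of those lines. No paired analysis was possible because the labels give the groups no shared replicate numbers. No detection calls were used, so signals under 40.5 are not shown to be above background. These limit Bdnf, 7 of 8 Ntrk2 probe sets, 3 of 8 for Ntrk3 and 1 of 3 for Ngfr.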
